A study of Mus musculus with 7 samples.

Results

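The 78 genes described here are named for proteins of the mitochondrial ribosome. They are the rows of the deposited count table whose symbol begins with Mrpl or Mrps followed by a digit, 49 Mrpl and 29 Mrps genes of 21861 rows in all. The tissue was retinal pigment epithelium (RPE), an epithelial sheet that serves the photoreceptors. The donors were aged mice given an adeno-associated virus (AAV) encoding GFP, the vector control (AAV-GFP, 3 libraries), or GSTA4, a glutathione transferase (AAV-GSTA4, 4 libraries). All tissue was taken 12 weeks after the virus, so the controls also carried a vector and a foreign protein. Strain, sex, exact age, virus dose, promoter and whether a library pools animals are not given in the sources used here. P-values therefore measure only the spread between these libraries, and how much of that spread is technical is not known. Of the 78 genes, 77 passed the filter on low counts and were tested. The remaining gene, Mrpl53, had 0 counts in all 7 libraries.

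Mitochondria translate their own small genome on a dedicated ribosome. Its ribosomal RNAs come from mitochondrial DNA, but all of its proteins are encoded in the nucleus, made in the cytosol and imported. It makes only core subunits of the respiratory chain and the ATP synthase. Many of its proteins descend from those of bacterial ribosomes, and others were added in mitochondria. The RPE is rich in mitochondria and relies on oxidative metabolism, and mitochondrial decline is a known feature of its ageing.

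Promoters of such genes are known for motifs of ETS-family factors such as GABPA, of NRF1 and of YY1, which are regulators of nuclear genes for mitochondria. Promoter windows (250 bases before to 50 after the start, RefSeq on GRCm38.p6) were found for 69 of the 78 genes. The letters CCGGAAG (ETS), searched on both strands, were in the windows of 26 of the 69 genes (37.7%), against 17.6% of 11870 genes tested. The palindrome CGCATGCG, the core of the NRF1 motif, was in 7 of 69 (10.1%, against 3.78%). The letters AAGATGGCG (YY1) were in 8 of 69 (11.6%, against 3.04%), and at least 1 of these 3 motifs was in 36 of 69 (52.2%, against 22.7%). Over all 32851 windows in the table, 8.86% held the ETS letters, 1.87% the NRF1 core and 1.40% the YY1 letters. In contrast, GGGCGG, an SP1 box, was in 49.3% of these genes and 64.7% of genes tested. A TATAAA box was in 7.25%, against 9.81%. A match describes the letters of the window and shows no binding.

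The next 5 sequences are the 120 bases before the start site, 5′ to 3′ on the gene's strand. The first pair belongs to the genes with the smallest p-values in each direction, and the other 3 show the motifs. Capitals mark the ETS, NRF1 and YY1 letters on either strand. The windows lie at chr13:118387253-118387372 on the minus strand (Mrps30), chr17:26123383-26123502 on the plus strand (Mrpl28), chr17:46110884-46111003 on the plus strand (Mrps18a), chr13:14613038-14613157 on the minus strand (Mrpl32) and chr13:73330889-73331008 on the plus strand (Mrpl36).
Mrps30: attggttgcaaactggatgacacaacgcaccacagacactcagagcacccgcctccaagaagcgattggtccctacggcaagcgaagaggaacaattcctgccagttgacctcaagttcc
Mrpl28: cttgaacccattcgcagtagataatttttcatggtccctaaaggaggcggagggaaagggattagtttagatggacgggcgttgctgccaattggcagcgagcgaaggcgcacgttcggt
Mrps18a: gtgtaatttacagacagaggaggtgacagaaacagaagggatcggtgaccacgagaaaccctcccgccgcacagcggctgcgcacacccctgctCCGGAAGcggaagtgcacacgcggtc
Mrpl32: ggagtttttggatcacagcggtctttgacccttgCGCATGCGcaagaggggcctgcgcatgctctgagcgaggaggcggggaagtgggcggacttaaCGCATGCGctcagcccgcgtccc
Mrpl36: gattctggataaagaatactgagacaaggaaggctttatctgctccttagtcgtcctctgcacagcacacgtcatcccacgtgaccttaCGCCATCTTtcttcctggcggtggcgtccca
The Mrps30 and Mrpl28 stretches held none of the 3 motifs, Mrps18a held an ETS match, Mrpl32 held the NRF1 core at 2 places, and Mrpl36 held a YY1 match on the opposite strand.

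Library totals were 15329181 to 28998964 counts, and 3 counts, the limit that a count of 0 allows, correspond to 0.103 to 0.196 CPM (counts scaled to a common library size). AAV-GFP replicate 3 stood apart: its scaling factor was 1.36, against 0.868 to 1.05 in the other libraries, and its mean correlation with them was 0.838, against 0.910 to 0.926. Y-linked transcripts took 0.0287% to 0.0459% of counts in AAV-GFP replicate 1 and AAV-GSTA4 replicates 3 and 4 and at most 0.000256% in the others. Each group thus held libraries with high and with low Y-linked counts. Rod marker RNA also differed between the groups, while the ranges of the RPE, endothelial and lens markers overlapped. A list of 16 rod photoreceptor markers took 1.78% to 6.21% of counts in AAV-GFP, highest in replicate 3, and 0.876% to 1.58% in AAV-GSTA4. None of the 16 was at 0 in any library. The 16 RPE markers were all detected in each library and took 3.31% to 7.31% and 5.80% to 9.96%, lowest in AAV-GFP replicate 3. Endothelial markers took at most 0.0209% of counts and lens markers up to 9.05%, in AAV-GSTA4 replicate 2. In bulk tissue, fewer cells of a type and less RNA per cell cannot be told apart.

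The mitochondrial ribosomal protein genes as a group were at similar levels in both groups. On the CPM scale, with library sizes adjusted by trimmed means (TMM), the middle gene of the 77 averaged 42.4 CPM ± 8.12 over the controls (SD, n = 3). Over the AAV-GSTA4 libraries it averaged 43.7 CPM ± 5.64 (SD, n = 4). The median log2 fold change, AAV-GSTA4 over control, was 0.03, against -0.07 over all 15075 genes tested, with 42 genes above 0 and 35 below. The values ran from -1.03 (Mrps30) to 0.55 (Mrps6), and 76 of the 77 differed by less than 1.5-fold, against 66% of all genes tested. The sign of the median depended on the processing. With library totals in place of TMM it was -0.24, and 68 of 77 genes were below 0. The median of all genes was then -0.37. The members' median was also below 0 with limma-voom (-0.01), a Y-linked covariate (-0.02) and a rod photoreceptor RNA covariate (-0.29). Leaving out AAV-GFP replicate 3 gave -0.08, and leaving out AAV-GSTA4 replicate 4 gave -0.02. Under the other alternatives the members' median stayed above 0. Among the members named below, Mrpl2, Mrpl12, Mrpl36, Mrpl44, Mrpl45, Mrps5, Mrps12 and Mrps18b turned from above to below 0 with library totals. Relative to all genes, the members' median was higher by 0.10 with TMM and by 0.13 with library totals. Over the alternatives this difference ran from -0.31 (rod covariate) to 0.22 (without AAV-GFP replicate 1). It was -0.09 without AAV-GFP replicate 3 and 0.005 with limma-voom.

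In edgeR's quasi-likelihood test, with p-values adjusted by Benjamini-Hochberg over all genes, 0 of the 77 had an adjusted p under 0.05, and so did 0% of all genes tested. The smallest adjusted p-value was 0.397, for Mrps30. DESeq2, which called 166 genes in all, and limma-voom also called 0 of the 77. Before adjustment, 0 of the 77 were higher with a p under 0.05, against 5.27% of all genes tested, and 1 was lower (Mrps30), against 6.63%. The groups did not overlap for 2 genes that were higher in every AAV-GSTA4 library (Mrpl28 and Mrpl2, against 6.44% of all genes) and 2 that were lower (Mrps30 and Mrpl1, against 5.61%). The 95% interval of the log2 fold change lay within a 2-fold change in either direction for 65 of the 77 genes (84.4%), against 33.9% of all genes. These genes were also more abundant than the typical gene, with a median log2 CPM of 5.50 against 4.00. A p-value above the threshold does not show equal levels, and the intervals bound the difference.

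**Figure D1:**
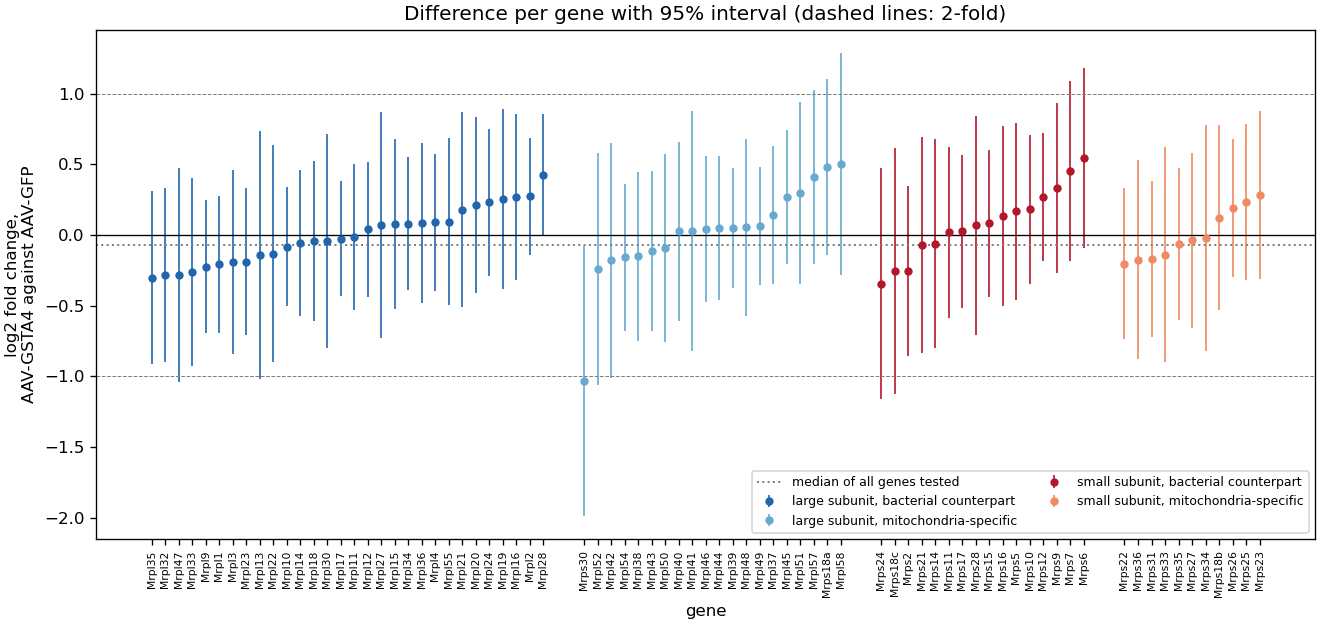
Log2 fold change of AAV-GSTA4 (4 libraries) against AAV-GFP (3 libraries) for each of the 77 genes tested (y axis, edgeR), with bars for the 95% interval, ordered within 4 structural classes along the x axis. The dotted line is the median of all genes (-0.07) and dashed lines mark 2-fold; Mrps30 at -1.03 is the only gene whose interval lies below 0.

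Mrps30 carries a small-subunit symbol, but its protein sits in the large subunit of the mitochondrial ribosome and has no bacterial counterpart. It had the lowest level of the 77, also per length, with 4.71, 5.60 and 6.68 CPM in the controls and 3.63, 3.36, 1.94 and 2.14 CPM after AAV-GSTA4 (here and below in the order of the replicate numbers). Every AAV-GSTA4 library lay below every AAV-GFP library. The values rest on 101 to 145 counts per AAV-GFP library and 33 to 70 per AAV-GSTA4 library. The log2 fold change was -1.03 ± 0.43 (SE), with a 95% interval from -1.99 to -0.08, an unadjusted p of 0.0371 and an adjusted p of 0.397 in edgeR's test. The exact permutation test over the 35 relabellings (two-sided) gave p = 0.0286, the smallest value this design can give. In all, 4 of the 77 genes reached that value, the others being Mrpl28, Mrpl2 and Mrpl1. These are the 4 members whose groups did not overlap. Over all genes tested, the groups did not overlap for 6.44% that were higher and 5.61% that were lower. The permutation test was not run over all genes, so the share that reaches its smallest value is not known. For Mrps30 the sign was the same in 17 of 17 alternatives, with values from -1.35 to -0.56 and adjusted p-values from 0.100 to 0.896. The value nearest to 0 came with a covariate for rod photoreceptor RNA (-0.56). The gene lies at chr13:118378381-118387252 (GRCm38, minus strand), and by p-value it ranked 1408 of 15075 genes.

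Among large-subunit proteins with a bacterial counterpart, 14 of 30 genes were above 0 and 16 below, with a median log2 fold change of -0.02. Mrpl28 was the closest to a call. Its levels were 114, 98.7 and 88.9 CPM in AAV-GFP and 128, 135, 137 and 139 CPM in AAV-GSTA4, so the highest control was below the lowest AAV-GSTA4 library. The AAV-GSTA4 libraries lay close together, at 135 CPM ± 4.86 (SD, n = 4) against 100.5 CPM ± 12.6 (SD, n = 3). The log2 fold change was 0.42 ± 0.19 (SE), with an unadjusted p of 0.0534 and an adjusted p of 0.427 in edgeR's test. It stayed above 0 in 17 of 17 alternatives, from 0.14 with library totals to 0.53 without AAV-GFP replicate 1, and was 0.19 with the rod covariate.

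Mrpl2 encodes a protein near the peptidyl transferase centre, where peptide bonds are made. It was at 40.4, 44.4 and 39.1 CPM in AAV-GFP and 47.9, 49.8, 55.3 and 46.8 CPM in AAV-GSTA4. Its groups did not overlap with TMM scaling, but its log2 fold change of 0.27 ± 0.18 (SE) became -0.03 with library totals. Mrpl1 was at 25.9, 21.2 and 20.9 CPM and at 20.1, 20.6, 17.6 and 20.1 CPM. The lowest control and the highest AAV-GSTA4 library nearly touched. Its log2 fold change was -0.21 ± 0.22 (SE), smaller than its error.

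The stalk that recruits translation factors to the ribosome is built from Mrpl10, Mrpl11 and Mrpl12. None of the 3 differed by more than its error, with log2 fold changes of -0.08 ± 0.19, -0.01 ± 0.23 and 0.04 ± 0.21 (SE). Mrpl12, whose product also binds the mitochondrial RNA polymerase, was at 35.1, 38.2 and 45.9 CPM in AAV-GFP and 40.0, 50.5, 35.6 and 37.5 CPM in AAV-GSTA4. The groups overlapped. Mrpl10 was among the steadiest members, from 33.6 to 40.7 CPM over the 7 libraries. Mrpl36, the counterpart of the smallest bacterial large-subunit protein, had a log2 fold change of 0.08 ± 0.25 (SE). It was at 84.6, 70.6 and 48.6 CPM in AAV-GFP and 69.0, 54.5, 82.8 and 82.0 CPM in AAV-GSTA4.

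The members with the smallest p-values below 0 in this class were Mrpl35, Mrpl9, Mrpl32, Mrpl1 and Mrpl33. Mrpl32, a protein that must be cleaved by a mitochondrial protease before it joins the ribosome, was at 72.6, 51.1 and 37.6 CPM in AAV-GFP. In AAV-GSTA4 it was at 33.3, 39.5, 54.9 and 48.7 CPM. AAV-GFP replicates 1 and 3 lay on either side of most AAV-GSTA4 libraries, and AAV-GSTA4 replicate 1 was the lowest of all. Mrpl35 and Mrpl33 had the same order among controls, from 70.5 to 33.1 CPM and from 81.8 to 35.2 CPM, with replicate 1 highest and replicate 3 lowest. Log2 fold changes were -0.30 ± 0.27, -0.28 ± 0.28 and -0.26 ± 0.30 (SE) for Mrpl35, Mrpl32 and Mrpl33. Without AAV-GFP replicate 3 they were -0.53, -0.48 and -0.55, and the unadjusted p-values of Mrpl35 and Mrpl33 became 0.0380 and 0.0247. Without AAV-GFP replicate 1 the log2 fold changes were 0.010, -0.002 and -0.029. Mrpl9 was at 43.7, 47.7 and 31.8 CPM and at 31.9, 38.1, 36.3 and 34.4 CPM, a log2 fold change of -0.22 ± 0.21 (SE).

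Of the large-subunit proteins classed as specific to the mitochondrial ribosome, 20 of 21 were tested, 13 above 0 and 7 below, with a median log2 fold change of 0.05. Mrpl58 encodes a peptidyl-tRNA hydrolase that is built into the ribosome and can free stalled chains. It was at 166, 166 and 67.8 CPM in AAV-GFP and 170, 132, 232 and 223 CPM in AAV-GSTA4. Its low control was replicate 3, and the groups overlapped. The log2 fold change of 0.50 ± 0.35 (SE) was 0.19 without that library and -0.15 with the rod covariate. For Mrpl57 the lowest library was again AAV-GFP replicate 3, with 36.9, 48.7 and 22.6 CPM in AAV-GFP and 39.8, 47.7, 54.8 and 49.6 CPM in AAV-GSTA4. Its log2 fold change of 0.41 ± 0.27 (SE) was 0.16 without that library and 0.70 without AAV-GFP replicate 2. Mrpl44 and Mrpl45 belong to the mitochondria-specific part of the large subunit, and Mrpl45 lies at the exit of the peptide tunnel, facing the inner membrane. Their log2 fold changes were 0.05 ± 0.23 and 0.27 ± 0.21 (SE).

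**Figure D2:**
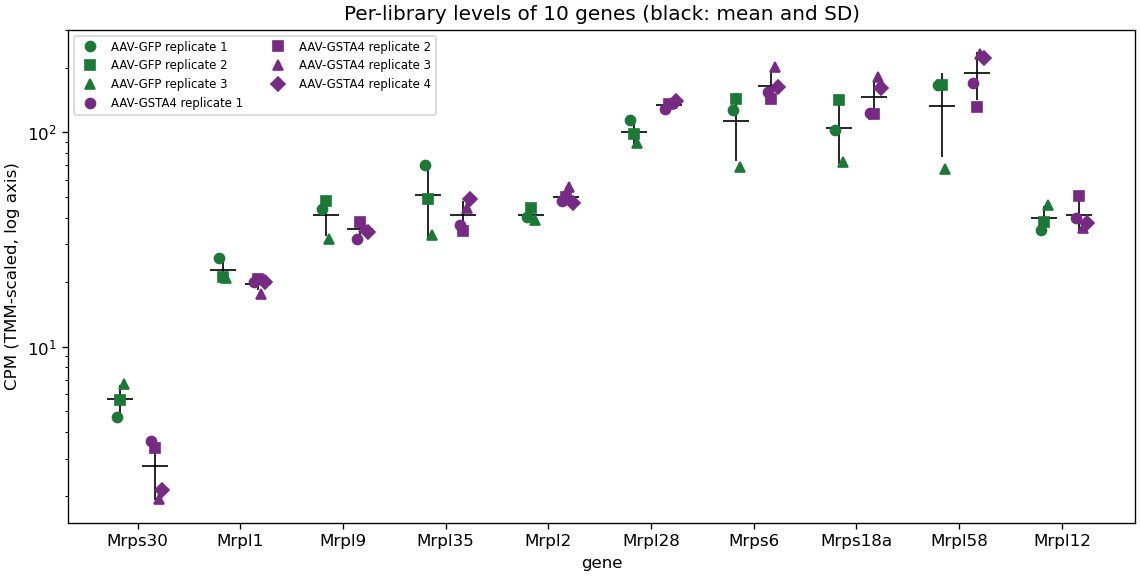
CPM (y axis, TMM-scaled, log axis) of 10 genes in each library, with marker shape for the replicate, colour for the group, and black lines for the mean and SD (n = 3 and n = 4). The groups do not overlap for Mrps30, Mrpl1, Mrpl2 and Mrpl28, while AAV-GFP replicate 3 (triangles) is the lowest control for Mrpl58, at 67.8 CPM, and for Mrps6, at 68.6 CPM.

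Among small-subunit proteins with a bacterial counterpart, 11 of 16 genes were above 0 and 5 below, with a median log2 fold change of 0.08. For those classed as specific to the mitochondrial ribosome, 4 of 11 were above 0 and 7 below, with a median of -0.04. Mrps6 had the highest log2 fold change of all members, 0.55 ± 0.28 (SE), with an adjusted p of 0.470 in edgeR's test. It was at 127, 143 and 68.6 CPM in AAV-GFP and 154, 142, 201 and 163 CPM in AAV-GSTA4. Control replicate 2 lay just above AAV-GSTA4 replicate 2, so the groups overlapped. Without AAV-GFP replicate 3 the log2 fold change was 0.29, and without AAV-GFP replicate 2 it was 0.76. It was 0.20 with the rod covariate. Other genes, among them Slc5a3 on the same strand, share 36.1% of its exonic bases.

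Mrps7, a head protein of the small subunit, was at 68.3, 87.9 and 36.7 CPM in AAV-GFP and 82.1, 86.3, 90.7 and 93.3 CPM in AAV-GSTA4. The AAV-GSTA4 libraries lay close together, and the controls lay on both sides of some of them. The log2 fold change was 0.45 ± 0.28 (SE), but 0.17 without AAV-GFP replicate 3, 0.75 without AAV-GFP replicate 2, 0.21 with library totals and 0.01 with the rod covariate. Mrps12, which lies at the decoding centre, was at 40.1, 39.2 and 33.3 CPM and at 40.7, 39.0, 49.8 and 51.0 CPM, a log2 fold change of 0.27 ± 0.20 (SE). It was -0.02 with library totals. Mrps5 and Mrps27 had log2 fold changes of 0.17 ± 0.28 and -0.04 ± 0.28 (SE). Mrps27 is an RNA-binding protein of the pentatricopeptide repeat family. For Mrps2, AAV-GFP replicate 3 was the highest control, at 30.9 CPM, against 16.5 and 20.3 CPM. Its log2 fold change of -0.26 ± 0.27 (SE) was 0.04 without that library. Mrps24 was at 53.1, 51.9 and 20.1 CPM and at 40.8, 35.2, 20.04 and 35.2 CPM, so each group held a library near 20 CPM. Its log2 fold change of -0.35 ± 0.36 (SE) was -0.67 without AAV-GFP replicate 3 and -0.13 without AAV-GFP replicate 1. Mrps36 had a log2 fold change of -0.17 ± 0.31 (SE). Its product was first assigned to the ribosome and later found in the 2-oxoglutarate dehydrogenase complex. The gene is counted here with the mitochondria-specific class by its symbol.

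Mammals have 3 relatives of the bacterial S18 protein, which take different places. Mrps18a is built into the large subunit and Mrps18b and Mrps18c into the small one. Per kilobase of exon (mean CPM over the 7 libraries divided by exon length), Mrps18a was at 124, Mrps18c at 46.2 and Mrps18b at 8.32. Across the groups, Mrps18a was at 102, 141 and 72.6 CPM in AAV-GFP and 123, 122, 181 and 162 CPM in AAV-GSTA4, a log2 fold change of 0.48 ± 0.28 (SE) with overlapping groups. It was 0.27 without AAV-GFP replicate 3 and 0.75 without AAV-GFP replicate 2. Mrps18c was at 73.0, 50.4 and 20.3 CPM and at 29.1, 37.8, 39.9 and 53.6 CPM. Its sign depended on single controls: the log2 fold change was -0.26 ± 0.39 (SE) over all libraries, -0.62 without AAV-GFP replicate 3 and 0.18 without AAV-GFP replicate 1. Mrps18b had a log2 fold change of 0.12 ± 0.29 (SE). Whether the log2 fold changes of these relatives differed from each other was not tested.

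Over the 77 genes with counts, levels per kilobase of exon spanned a wide range. Mrpl42 was the highest at 336 CPM per kilobase, followed by Mrps21 at 224, Mrpl27 at 180 and Mrps6 at 169. At the low end were Mrps5 at 4.41, Mrpl19 at 4.09 and Mrps30 at 1.21. Exon length is the union of GENCODE M21 basic coding transcripts, and a long untranslated end lowers the value of a gene that mostly uses a short form. Within a library, Mrpl genes together took 1.83 to 2.26 times the counts of Mrps genes. This ratio averaged 2.06 ± 0.175 for the controls (SD, n = 3) and 1.94 ± 0.0942 for AAV-GSTA4 (SD, n = 4), and the ranges overlapped.

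Mrpl53, with 0 counts in each library (which allows up to 0.103 to 0.196 CPM), lies at chr6:83109040-83109939 (GRCm38, plus strand), and 100% of its 695 exonic bases are also exons of Gm42688, a longer gene that runs through Ccdc142 into Mrpl53. Gm42688 itself had 4 to 27 counts per library. The rule for reads that fall on more than 1 gene is not given in the sources used here, so a level of Mrpl53 cannot be taken from this table. In all, 16 of the 78 genes share exonic bases with another coding gene of the table, and for 2 of them (Mrpl53 and Mrps25) the share is above 50%. The annotation also lists pseudogenes under the symbols of Mrpl23, Mrpl48 and Mrps36. The levels of these 3 genes are thus uncertain where reads match more than 1 place. Pseudogenes under other symbols were not searched for, so the same doubt may hold for other members.

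The median member varied more between libraries of a group than between the groups. The highest library was a median of 1.89 times the lowest over the 77 genes, against 2.93 times over all genes tested. AAV-GFP replicate 3 had the lowest level for 45 of 77 genes (58.4%, against 29.4% of all genes), and AAV-GFP replicate 1 the highest for 21 (27.3%, against 15.0%). The median gene deviated from its own mean log2 CPM by 0.10, 0.17 and -0.43 in the controls and by -0.18, 0.03, 0.11 and 0.19 after AAV-GSTA4. AAV-GFP replicate 3 thus lay below every AAV-GSTA4 library, and AAV-GFP replicates 1 and 2 lay within the AAV-GSTA4 range. Mrpl13 showed the widest range, at 104, 73.9 and 25.6 CPM in AAV-GFP, with the AAV-GSTA4 libraries between 48.8 and 67.1 CPM. Mrpl42 (381, 239 and 114 CPM) and Mrps14 (269, 197 and 93.5 CPM) had the same order. Mrpl17 was the steadiest, from 72.1 to 86.8 CPM. These 4 genes were singled out after their values were seen.

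**Figure D3:**
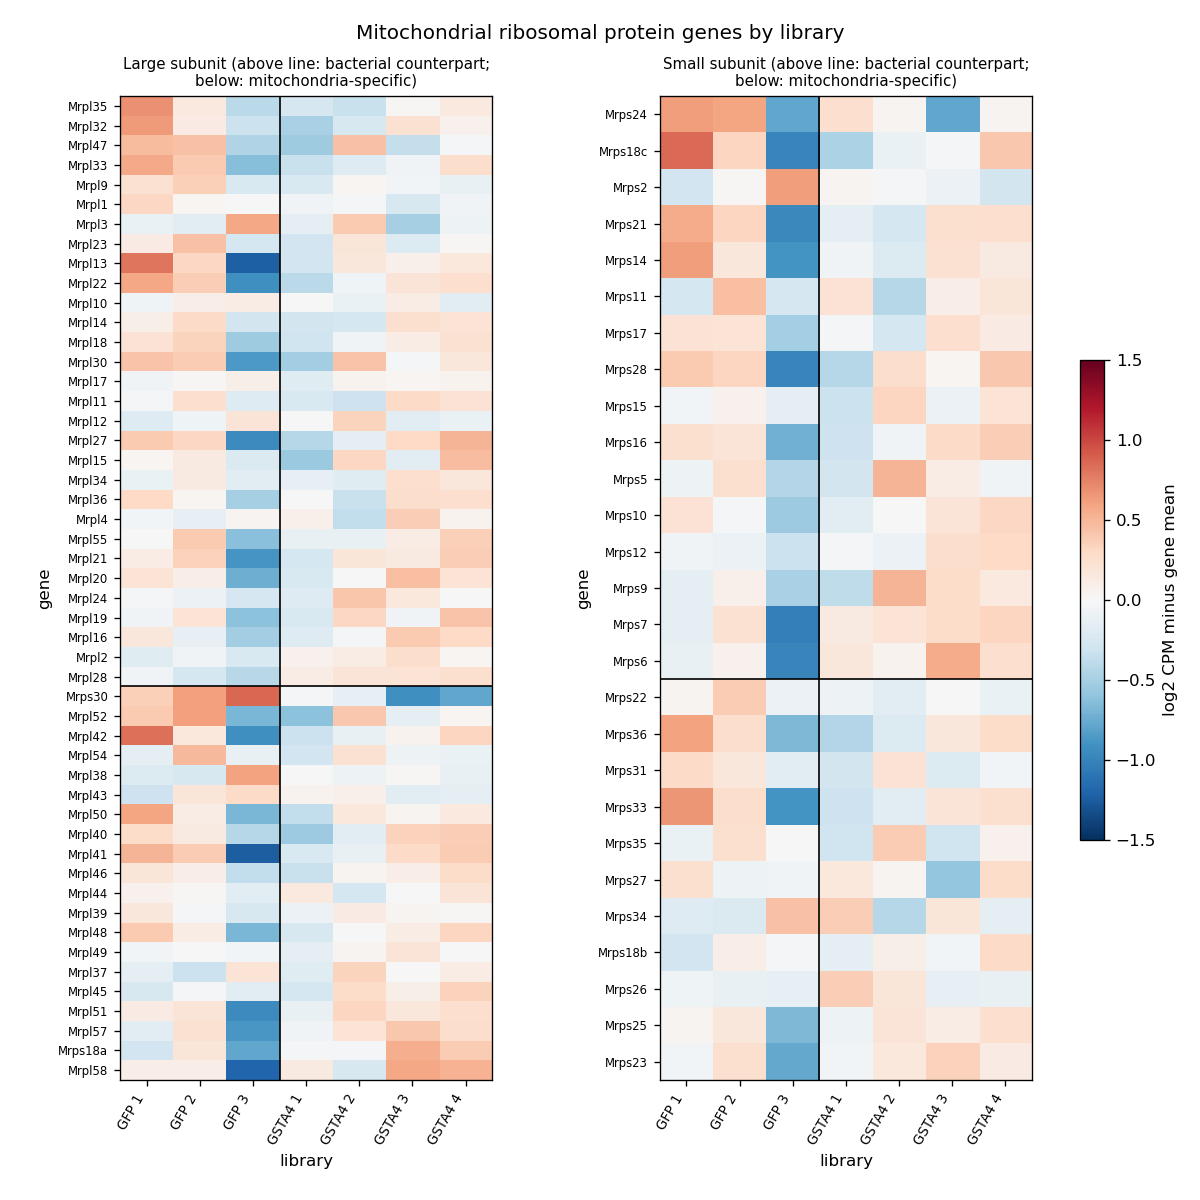
Log2 CPM minus the gene's mean (colour) for the 77 genes (rows) in each of 7 libraries (columns), with a vertical line between AAV-GFP and AAV-GSTA4. AAV-GFP replicate 3 is the lowest library for 45 of 77 genes, and the groups do not overlap for 4 of the 77.

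Part of this pattern depends on the scaling. As a plain share of all counts, the 78 genes took 0.488%, 0.487% and 0.393% in the controls and 0.361%, 0.378%, 0.408% and 0.453% after AAV-GSTA4 (95% Wilson intervals of at most 0.0031 percentage points to either side, counting error only). On that scale AAV-GFP replicate 3 was no longer the lowest library, and it was the lowest for 20 of 77 genes (26.0%), while AAV-GSTA4 replicate 1 was for 25. The shares were 0.456% ± 0.0547 (SD, n = 3) and 0.4% ± 0.0405 (SD, n = 4), and the groups overlapped. Without AAV-GFP replicate 3 the median log2 fold change with TMM was -0.08, with 32 genes above 0 and 45 below, against a median of 0.01 over all genes. Then 5 of 77 were below 0 with an unadjusted p under 0.05 (Mrps18c, Mrps24, Mrpl13, Mrpl35 and Mrpl33), against 5.74% of all genes tested, and 0 were above 0, against 6.76%. Without AAV-GFP replicate 2, 4 of 77 were above 0 at that threshold (Mrpl57, Mrps18a, Mrps6 and Mrps7), against 3.71% of all genes, and 0 were below 0, against 6.81%. These counts lie near the shares over all genes or under them, and in both fits 0 members had an adjusted p under 0.05 in edgeR's test.

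Rod photoreceptor RNA, which was higher in the controls, was also entered as a covariate. Its share of counts did not overlap between the groups, at 1.78% to 6.21% in AAV-GFP and 0.876% to 1.58% in AAV-GSTA4. The covariate thus moved with the group, and with 7 libraries the fit cannot fully separate them. This limit holds for every value given with the rod covariate. With the rod score as a covariate the median log2 fold change was -0.29, against 0.02 over all genes. In that fit 26 genes were above 0 and 51 below. Of the 77, 10 were below 0 with an unadjusted p under 0.05, against 5.48% of all genes tested, and 0 were above 0, against 3.14%. The 10 were Mrps18c, Mrpl42, Mrpl35, Mrpl33, Mrpl13, Mrps36, Mrps33, Mrpl50, Mrpl32 and Mrpl22. The covariate moved single members both ways. The log2 fold change went from -0.26 to -1.41 for Mrps18c, from -0.26 to -1.06 for Mrpl33 and from -0.30 to -0.98 for Mrpl35. For Mrps30 it went from -1.03 to -0.56. None of the 77 had an adjusted p under 0.05 in edgeR's test. The part of tissue make-up in the levels of the mitochondrial ribosomal protein genes was not tested further.

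Families that work with the mitochondrial ribosome or resemble it were set beside it. With TMM scaling, the 80 cytosolic ribosomal protein genes centred on a log2 fold change of -0.10, with 23 above 0 and 57 below. The 82 nuclear genes for respiratory chain and ATP synthase subunits had a median of -0.01, with 40 above and 42 below. The 13 genes encoded in mitochondrial DNA, whose messages this ribosome translates, had a median of -0.44, with 13 of 13 below 0. None of these 3 families had a gene with an unadjusted p under 0.05, against 11.9% of all genes tested. AAV-GFP replicate 3 was also the lowest library for 68.8% of the cytosolic, 82.9% of the nuclear respiratory and 69.2% of the mitochondrially encoded genes. With library totals these shares were 3.75%, 50% and 23.1%, and the library most often lowest was AAV-GSTA4 replicate 1 for the cytosolic genes (63.8%) and AAV-GSTA4 replicate 4 for the mitochondrially encoded genes (61.5%). In AAV-GSTA4 replicate 2 the cytosolic genes deviated from their means by a median of 0.48, where the mitochondrial ribosomal genes were at 0.03. Whether the families differed from each other was not tested.

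**Figure D4:**
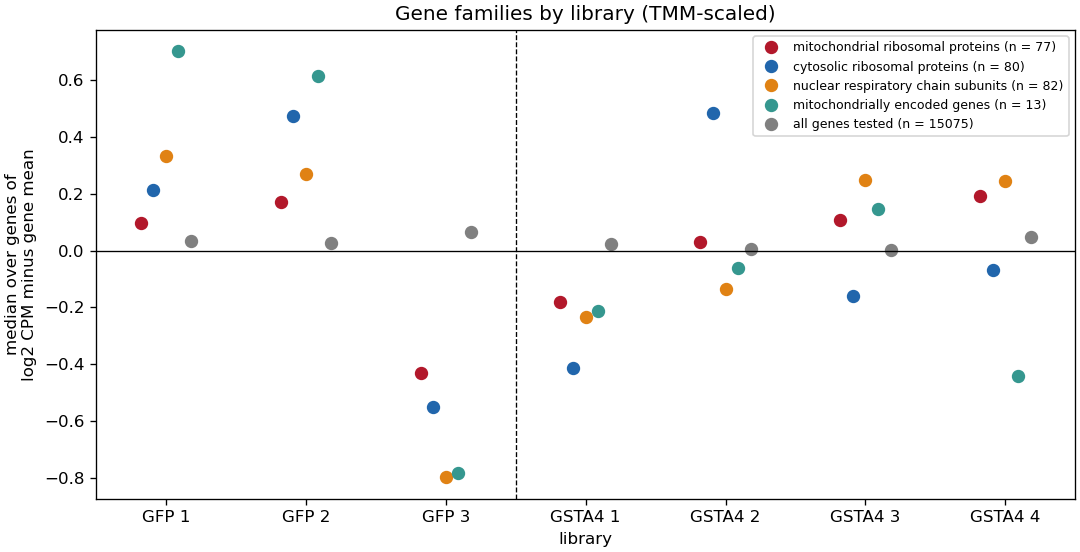
Median over genes of log2 CPM minus the gene's mean (y axis) in each library (x axis), for the mitochondrial ribosomal protein genes and 4 other sets, with a dashed line between the groups. The mitochondrial ribosomal protein genes run from -0.43 in AAV-GFP replicate 3 to 0.19 in AAV-GSTA4 replicate 4, a narrower range than that of the mitochondrially encoded genes, from -0.78 to 0.70.

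A further 5 proteins of the same ribosome have other symbols. Dap3, a GTP-binding protein of the small subunit, had a log2 fold change of -0.37 ± 0.23 (SE), at 27.7, 41.0 and 40.8 CPM in AAV-GFP and 25.5, 34.1, 26.1 and 27.3 CPM in AAV-GSTA4. It was -0.70 with library totals and -0.05 with the rod covariate. The other 4, Ptcd3, Aurkaip1, Chchd1 and Gadd45gip1, had log2 fold changes from 0.01 to 0.15, and those of Aurkaip1, Chchd1, Gadd45gip1 and Ptcd3 were below 0 with library totals. The adjusted p-values of the 5 in edgeR's test ran from 0.532 to 0.994.

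The rest of the mitochondrial translation machinery gave no call at an adjusted p under 0.05 in edgeR's test. Of 17 translation factors tested, 0 had an unadjusted p under 0.05, against 11.9% of all genes tested. Tsfm, the exchange factor for the elongation factor Tu, came closest, at 11.9, 12.3 and 12.4 CPM in AAV-GFP and 19.1, 15.1, 17.3 and 17.5 CPM in AAV-GSTA4. The difference on the log2 scale was 0.50 ± 0.24 (SE), with an adjusted p of 0.436, and it was 0.19 with library totals. Lrpprc, which stabilises mitochondrial messages, had -0.45 ± 0.26 (SE), and -0.28 without AAV-GFP replicate 3. Of 28 genes for ribosome assembly and ribosomal RNA modification, 2 were below 0 with an unadjusted p under 0.05. Over all genes tested this share was 6.63%. Afg3l2, a subunit of the inner-membrane protease that cleaves the Mrpl32 product, was at 18.8, 18.3 and 38.3 CPM in AAV-GFP and 14.7, 11.7, 8.05 and 10.5 CPM in AAV-GSTA4. The difference on the log2 scale was -1.16 ± 0.34 (SE), with an adjusted p of 0.363 in edgeR's test, and -0.72 without AAV-GFP replicate 3, the highest library, and -0.47 with the rod covariate. Mpv17l2, a membrane protein that helps ribosome assembly, had 0.44 ± 0.23 (SE), and 0.16 with library totals.

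Of 17 mitochondrial aminoacyl-tRNA synthetases, which charge transfer RNAs, 0 had an unadjusted p under 0.05, against 11.9% of all genes tested. Cars2 and Nars2 had the smallest p-values in each direction, with log2 fold changes of -0.77 ± 0.36 and 0.43 ± 0.25 (SE). That of Nars2 was 0.11 with library totals. Of 9 genes for mitochondrial transcription and DNA replication, 1 was below 0 with an unadjusted p under 0.05, against 6.63% of all genes tested. This gene was Polg2, the accessory subunit of the mitochondrial DNA polymerase. It was at 20.1, 28.8 and 55.0 CPM in AAV-GFP and 12.1, 13.8, 17.7 and 14.6 CPM in AAV-GSTA4. The difference on the log2 scale was -1.25 ± 0.34 (SE), with an adjusted p of 0.363 in edgeR's test, and -0.75 without AAV-GFP replicate 3 and -0.30 with the rod covariate. Twnk, the replicative helicase, had 0.44 ± 0.42 (SE), and 0.11 without AAV-GFP replicate 1 against 0.91 without AAV-GFP replicate 3. It overlaps Mrpl43 on the opposite strand, and 27.5% of the exonic bases of Mrpl43 are shared between them.

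Of 10 nuclear regulators, 1 was above 0 and 1 below 0 at an unadjusted p under 0.05, against 5.27% and 6.63% of all genes tested. Gabpa, which encodes the DNA-binding subunit of the ETS factor named above, was at 39.7, 40.4 and 38.8 CPM in AAV-GFP and 56.3, 57.6, 54.6 and 45.3 CPM in AAV-GSTA4. All AAV-GSTA4 libraries were above all controls. The log2 fold change was 0.43 ± 0.19 (SE), and the adjusted p was 0.411 in edgeR's test. With library totals the log2 fold change was 0.13. Ppargc1b, a coactivator of mitochondrial gene programmes, had a log2 fold change of -1.22 ± 0.50 (SE) with overlapping groups and an adjusted p of 0.395. It was at 6.34, 14.0 and 27.9 CPM in AAV-GFP and 4.00, 5.81, 7.52 and 10.2 CPM in AAV-GSTA4. Without AAV-GFP replicate 3 the log2 fold change was -0.57 (unadjusted p = 0.243 in edgeR's test), with limma-voom -0.56 and with the rod covariate -0.26. The related genes Gabpb1 and Ppargc1a had the opposite signs, at -0.57 ± 0.28 and 0.41 ± 0.21 (SE). Their adjusted p-values in edgeR's test were 0.459 and 0.463. The groups overlapped for Gabpb1 and did not for Ppargc1a. Of the 10 regulators, 3 were above 0 and 7 below. Members with the ETS letters in their promoter window centred on a log2 fold change of 0.06 (25 genes), and those without had 0.03 (43 genes). For the NRF1 core the medians were -0.08 with it (7 genes) and 0.04 without (61 genes), and for the YY1 letters -0.01 (8 genes) and 0.04 (60 genes). These are descriptions of small sets, with no test.

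The members' transcript length bore little relation to the comparison. Across the 77 genes, which are not independent replicates, Spearman's rho of exon length with the log2 fold change was 0.06 (-0.04 over 14881 genes). With the deviation of AAV-GFP replicate 3 it was 0.27 (0.20 over all genes). In that library the 26 genes with the shortest exon lengths, of 478 to 1068 bases, deviated by a median of -0.68, the 25 of middle length by -0.25, and the 26 longest, of 2080 to 7605 bases, by -0.36. The deviation thus did not follow length in order. The members also varied together from library to library: over 2926 pairs of genes, the median Pearson correlation of log2 CPM over the 7 libraries was 0.39. After removal of the group means it was 0.45. All pairs share the same 7 libraries and their scaling. Pairs of other genes were not examined, so whether these correlations are particular to the members is not known.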

How the data were processed

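RNA of 7 libraries (SMART-Seq v4 and Nextera XT, per the labels' protocols) was analysed from whole-number counts per gene that the authors deposited. Reads were handled with STAR 2.7.1a and featureCounts 1.6.2, per the submitters' processing notes, and strand and multi-mapping rules are not given in the sources used here. The notes list both GRCm38 and GRCh38. Coordinates are GENCODE M21 on GRCm38.

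Counts were fitted with edgeR 4.0.16 (R 4.3.3; TMM scaling, filterByExpr, robust quasi-likelihood F-test, 3 AAV-GFP against 4 AAV-GSTA4) over all genes, and p-values were adjusted over all of them by Benjamini-Hochberg. The common biological coefficient of variation was 48.2%. The script was tested on simulated data. Alternatives were DESeq2 1.42.0, limma 3.58.1 (voom), other scalings and filters, blocks, covariates and single libraries left out.

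The members and lists were chosen with earlier results of these data known. Members named are those with an adjusted p under 0.05, those with the 8 smallest p-values in each direction (mean log2 CPM of at least 2), a list named for roles, and those under the filter. Of each other list, the smallest p in each direction is named, and of the regulators also Gabpb1 and Ppargc1a.

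Same-numbered libraries did not deviate together by title number (correlations of -0.089, 0 and 0.009) or by library number (-0.089, 0.015 and -0.128). So few libraries cannot show whether equal numbers share an animal, and the labels do not say. Every pair of libraries differed by more than counting error.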

Additional observations from a re-analysis of the deposited data

Results flagged for a closer look

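Ptcd3, a pentatricopeptide repeat protein of the small subunit, had 1 AAV-GSTA4 library far from the other 3. Replicate 2 was at 84.8 CPM, against 60.2, 62.2 and 61.4 CPM, and the gap to its nearest neighbour was 0.92 of the group's range, above Dixon's 95% critical value for 4 samples. It was 1 of 43 items examined, and chance flags about 1 in 20. In AAV-GFP the values ran from 36.3 to 84.7 CPM, so the high library lay at the top of the control range.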

How the results depend on the processing

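No member had an adjusted p under 0.05 under any of the 17 alternatives. The median log2 fold change over members was -0.24 with library totals and -0.29 with the rod covariate. It ran from -0.083 (without AAV-GFP replicate 3) to 0.149 (without AAV-GFP replicate 1) when single libraries were left out. At an unadjusted p under 0.05, members above 0 numbered 1 of 77 with median-of-ratios scaling (5.61% of all genes tested), 1 with DESeq2 (6.65%), 1 with limma-voom (10.3%), and 0 to 4 with single libraries left out (3.21% to 6.76% of all genes). Members below 0 numbered 4 with library totals (14.1% of all genes), 3 with limma-voom (11.5%), 0 with no expression filter (5.72%), 10 with the rod covariate (5.48%), and 0 to 5 with single libraries left out (3.67% to 7.46%). With a replicate block by title number or by library number there were 0 below 0 (3.69% and 3.87% of all genes). Whether equal numbers pair the libraries is not stated in the labels. A Y-linked covariate, chosen after seeing the data, gave a median of -0.022. Of 459 fold changes of the 27 named members under alternatives, 425 kept their sign, and library totals turned 8. The causes were not tested. Depth limits Mrps30 most among the named members, with 33 counts in its lowest library.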
